A study of Homo sapiens with 54 samples.

Results

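The 37 transcripts described here are encoded by the mitochondrial genome itself. They were chosen by name, as every row of the 4 expression tables whose gene symbol starts with MT-, which gave 37 of 55906 rows: 13 mRNAs, 2 rRNAs and 22 tRNAs. Levels are in TPM, the length-corrected share of a transcript in its library. The rule uses names and no measured value, but it was set with earlier results of these data known. For testing, a row needed 1 TPM or more in 4 or more libraries of a cell line, and all 13 mRNAs and both rRNAs met this in every line. Of the 22 tRNAs, A549 kept 19, NCI-H23 15, LN229 12 and LN319 17. MT-TW and MT-TR, for tryptophan and arginine, were kept in none.

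RNA-seq libraries came from 54 samples in 18 conditions of 3 replicates, from a study of TRA2A and TRA2B, paralogous splicing factors of the SR-like family. The lung cancer lines A549 and NCI-H23 stably carried Zim3-dCas9, a nuclease-dead Cas9 joined to a repressor domain, and received control guides (Control KD), guides to TRA2A (TRA2A KD), guides to TRA2B (TRA2B KD) or both (TRA2A/B DKD), with collection on day 5. The glioma lines LN229 and LN319 were collected on day 7 after lentiviral delivery of Cas9 together with guides. Their cells overexpressed either luciferase, with control, TRA2A or TRA2B guides (Luc Control KO, Luc TRA2A KO, Luc TRA2B KO), or TRA2B, with control or TRA2A guides (TRA2B-OE Control KO, TRA2B-OE TRA2A KO). All groups carry a Cas9 protein and guides, so no untreated parental cells entered a comparison. Nothing in the labels says that replicates are separate cultures, so the p-values may measure only technical spread. 

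TRA2A stood at 5.31 to 10.4 TPM in A549 TRA2A KD against 69.5 to 79.4 TPM in its controls, and at 65.0 to 74.2 TPM in LN229 Luc TRA2A KO against 105 to 111 TPM. TRA2B stood at 29.3 to 32.4 TPM in LN319 Luc TRA2B KO against 83.5 to 90.2 TPM, and at 8.87 to 11.4 TPM in NCI-H23 TRA2B KD against 80.3 to 103 TPM. The targeted gene was thus below its control in each of these groups, by a smaller margin in LN229. In LN229 TRA2B-OE TRA2A KO, however, TRA2A stood at 65.4 to 75.6 TPM against 74.8 to 84.3 TPM in TRA2B-OE Control KO, which overlapped and was not called (log2 fold change -0.22, limma adjusted p = 0.079). TRA2A was also lower in LN319 Luc TRA2B KO, at 84.8 to 97.1 TPM against 101 to 113 TPM (-0.35, limma adjusted p = 0.0040). After TRA2B guides alone in the other lines TRA2A was higher, by 0.47 in A549 (not called), 0.46 in NCI-H23 and 0.59 in LN229. Of the epithelial markers, KRT8 and KRT18 were high in both lung lines, while EPCAM did not exceed 3.77 TPM in any of the 4 lines and CDH1 was highest in LN319, at 116 to 150 TPM. Of the glial and mesenchymal markers, VIM was high in all 4 lines (835 TPM or more in every library), and CD44 and FN1 were higher in both glioma lines than in any lung library. GFAP did not exceed 5.17 TPM and CHI3L1 4.50 TPM in any line, and OLIG2 was at 5.93 to 14.2 TPM in LN229 but at most 0.140 TPM in LN319.

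Human mitochondrial DNA is a small circle transcribed from both strands into long precursors, which are cut at the tRNAs that punctuate them into mRNAs, rRNAs and tRNAs. The mRNAs code for core subunits of respiratory complexes I, III, IV and V, and every other subunit of these complexes comes from nuclear genes. Most of the mRNAs receive a short poly(A) tail, which also completes stop codons that the DNA leaves unfinished, whereas MT-ND6 is known for having little or no tail. The libraries were made from RNA bound to poly-T beads. The amount of a mitochondrial RNA and its poly(A) tail therefore cannot be told apart in these values, nor can RNA per cell and a mix of cells that differ.

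The mitochondrial chromosome in hg38 has 16569 bp (coordinates below from Gencode v44, which names the same 37 genes). Of the 13 mRNA genes, 12 lie on the plus strand and MT-ND6 alone on the minus strand. The last 15 bases of 6 mRNA genes are shown because they tell whether the final codon is whole in the DNA. The letters of that codon, or the part of it present, are in capitals.
MT-ND6 (chrM:14149-14163, minus strand): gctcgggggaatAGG
MT-ND5 (chrM:14134-14148): ctcctaatcacaTAA
MT-ND1 (chrM:4248-4262): tccccctcaaaccTA
MT-ND2 (chrM:5497-5511): tactaataatcttaT
MT-ND4 (chrM:12123-12137): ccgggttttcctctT
MT-CO3 (chrM:9976-9990): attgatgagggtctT
In all, 6 of the 13 genes end in an incomplete stop (MT-ND1, MT-ND2, MT-CO3, MT-ND3, MT-ND4 and MT-CYB) and the other 7 in a complete one. Complete here means only that the gene ends in a whole codon, which is AGG in MT-ND6 and AGA in MT-CO1. Of the mRNAs called after NCI-H23 TRA2A/B DKD, below, 5 were among the 6 with an incomplete stop and 2 among the 7 with a complete one, a difference that was not tested. After LN319 Luc TRA2B KO all of both kinds were called.

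A pair of neighbours share sequence, shown with the shared bases in capitals, because reads that fall there cannot be assigned to one gene by sequence alone.
MT-ATP8 and MT-ATP6 (chrM:8519-8580): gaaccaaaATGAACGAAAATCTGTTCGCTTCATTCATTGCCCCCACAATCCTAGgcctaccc
MT-ND4L and MT-ND4 (chrM:10752-10774): ctactccaATGCTAAaactaatc
The first overlap covers 46 bp, which is 22.2% of MT-ATP8 (207 bp), and the second 7 bp of MT-ND4L (297 bp). MT-ND5 and MT-ND6 meet end to end on opposite strands, shown on the plus strand with the end of MT-ND5 in capitals.
MT-ND5 and MT-ND6 (chrM:14134-14163): CTCCTAATCACATAAcctattcccccgagc
No gene of the plus strand is annotated across MT-ND6. The libraries keep strand, but whether the quantification used it is not given in the sources used here, so RNA of the other strand across MT-ND6 cannot be told apart from MT-ND6 itself.

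The shortest mRNAs varied most between replicates, but spread did not follow length beyond them. Over the 18 conditions, the median coefficient of variation between 3 replicates was 20.3% for MT-ATP8 and 17.4% for MT-ND4L, the shortest mRNAs. It was 15.5% for MT-ND6, 14.6% for MT-ND5, the longest, 12.1% for the short MT-ND3, and 7.49% for MT-ND2, the lowest of the mRNAs. The read pairs of 150 bp are longer than a tRNA of 59 to 75 bp, and TPM of transcripts that short depend strongly on the fragment lengths assumed.

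Mitochondrially encoded RNA was a large part of each library, and the lines differed. The members together held 15.4 to 23.8% of the summed TPM in the 12 A549 libraries, 17.8 to 33.4% in NCI-H23, 6.02 to 8.31% in LN229 and 12.1 to 20.6% in LN319. No LN229 library reached the level of any library of another line. The TPM of a library summed to between 928908 and 964610, and the shares are of that sum. Single libraries stood apart within several lung groups. The third A549 Control KD library had 5.61% of its TPM in rRNA against 2.86 and 2.18% in the other controls, and 10 of the 22 tRNAs listed at 0. By total share, the second A549 TRA2A KD library had 15.4% against 23.8 and 22.8%, the first NCI-H23 Control KD library 31.9% against 23.1 and 24.9%, the second NCI-H23 TRA2A KD library 33.4% against 25.6 and 25.2%, and the second NCI-H23 TRA2A/B DKD library 28.3% against 19.3 and 19.6%. Nearly all of the mitochondrial TPM came from mRNAs and rRNAs, while the 22 tRNAs together held 0.00705 to 0.0725% of a library.

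**Figure D1:**
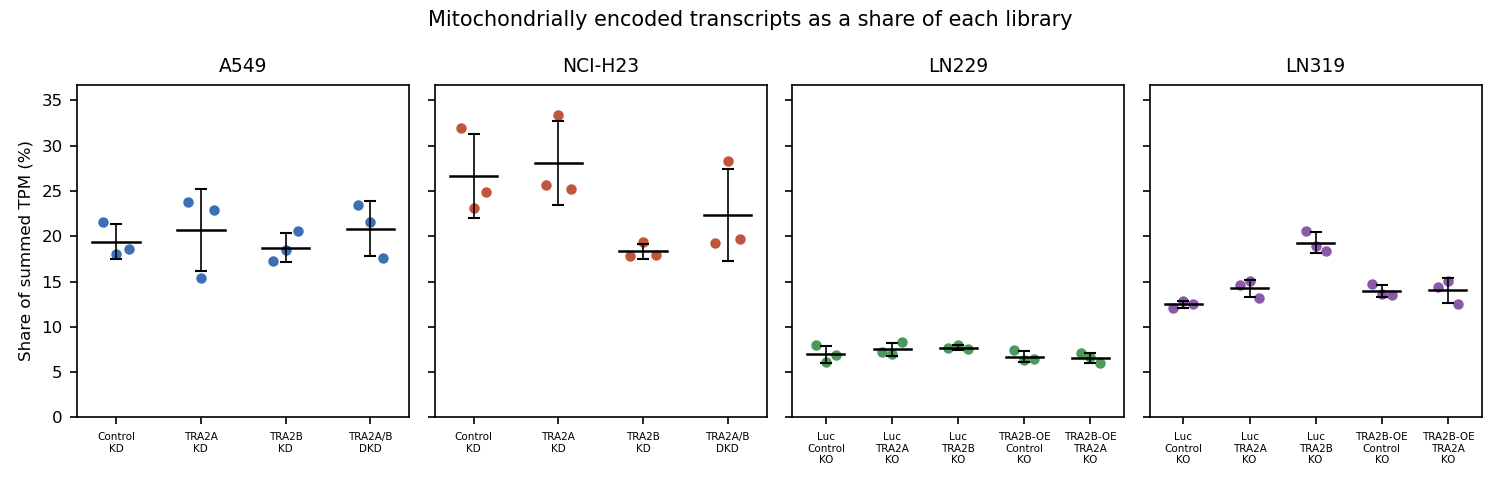
Share of summed TPM held by the 37 mitochondrially encoded transcripts (y axis, percent) in each library of 4 cell lines, by condition (x axis), with points for the 3 replicates and bars for mean and SD. In LN319 the 3 Luc TRA2B KO libraries, at 18.3 to 20.6%, lie above all others of the line, and in NCI-H23 the 3 TRA2B KD libraries, at 17.8 to 19.3%, lie below the controls.

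In the controls of each line, the leading mRNA was not separated from the next by the spread of its libraries. In control libraries, MT-ND4L, a complex I subunit, had the highest mean in A549 (24188 TPM), LN229 (11072) and LN319 (17389), whereas MT-CO2, a subunit of cytochrome c oxidase (complex IV), led in NCI-H23 at 42072 TPM, followed by MT-ND3 at 41302. MT-ND4, which shares bases with MT-ND4L, had control means of 11319 TPM in A549, 4517 in LN229, 4632 in LN319 and 18177 in NCI-H23. All levels are per annotated gene, and whether such neighbours lie on one RNA molecule was not tested. The first and second gene overlapped in the controls of every line, and MT-CO2 led in the other 3 A549 conditions and in LN319 TRA2B-OE Control KO. MT-ND4L led without overlap in LN229 Luc TRA2A KO, Luc TRA2B KO and TRA2B-OE Control KO, and in LN319 Luc TRA2B KO. In NCI-H23, MT-ND4L had 9100 TPM, the lowest mean among the 4 lines. The other 14 of the 15 mRNAs and rRNAs had their lowest mean in LN229. The lowest mRNA was MT-ND6 in A549 (1452 TPM), NCI-H23 (1914) and LN319 (1298), and MT-ND5 in LN229 (869). These levels come from tables of separate lines, so the orders were not tested across lines.

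MT-RNR1 differed most between lines. This rRNA of the small ribosomal subunit had a control mean of 25806 TPM in NCI-H23 and 18705 in A549, but 3510 in LN319 and 1071 in LN229, a span of 24.1-fold. MT-RNR2, the large-subunit rRNA, spanned 7.36-fold, from 1996 TPM in LN229 to 14684 in A549, less than the 8.35-fold of MT-ND5. The ratio of MT-RNR1 to MT-RNR2 was 2.23 to 5.07 in NCI-H23 and 1.14 to 3.25 in A549. It was 0.393 to 0.609 in LN319 and 0.427 to 0.588 in LN229, so the order of both rRNAs was opposite in lung and glioma lines in every library.

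**Figure D2:**
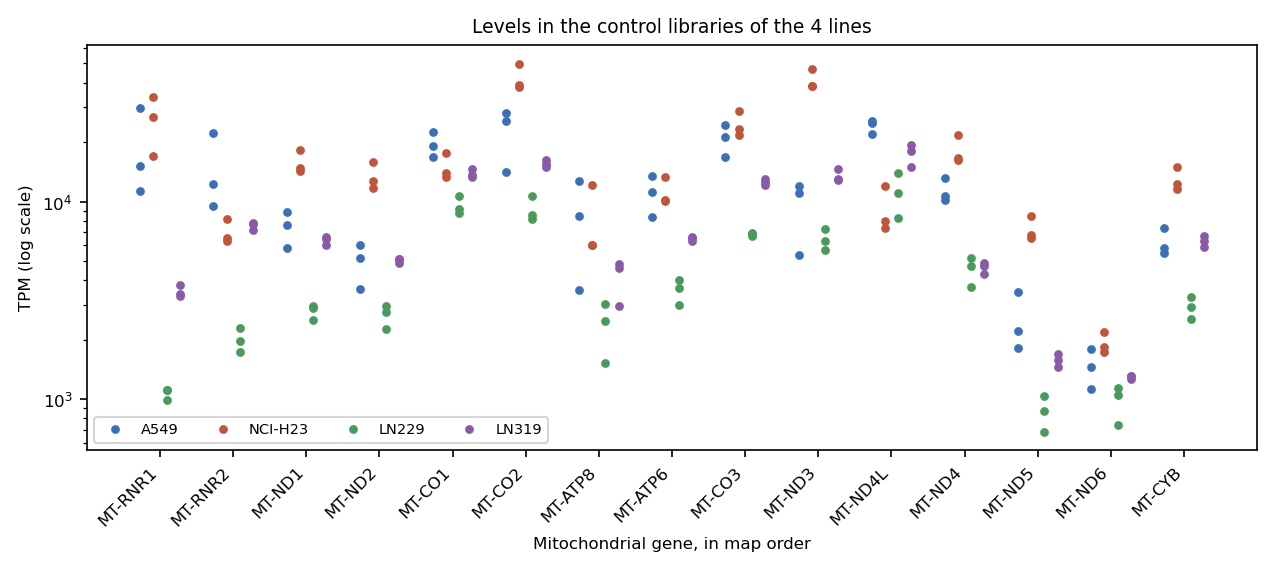
TPM (y axis, log scale) of the 2 rRNAs and 13 mRNAs in map order (x axis) in the 3 control libraries of each line, one point a library. LN229 points are lowest for nearly every gene, MT-ND4L is lowest in NCI-H23, and MT-RNR1 spans the widest range.

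To ask whether loss of TRA2A, TRA2B or both changed mitochondrial transcripts, each line was fitted on all its tested genes with limma, and a gene was called at a Benjamini-Hochberg adjusted p under 0.05. Of 14 comparisons, 4 had a called mRNA or rRNA: TRA2A/B DKD in A549 and in NCI-H23, and Luc TRA2A KO and Luc TRA2B KO in LN319. MT-ND6 and MT-RNR1 were called higher in A549 TRA2A/B DKD, LN319 Luc TRA2A KO and LN319 Luc TRA2B KO. The A549 call of MT-RNR1 was lost in 5 of 6 fits that left out a library. In NCI-H23 TRA2A/B DKD neither gene was called, and 7 mRNAs fell. The other calls differed between lines, and all 15 rose only in LN319 Luc TRA2B KO. Comparisons within a line share their control libraries.

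**Figure D3:**
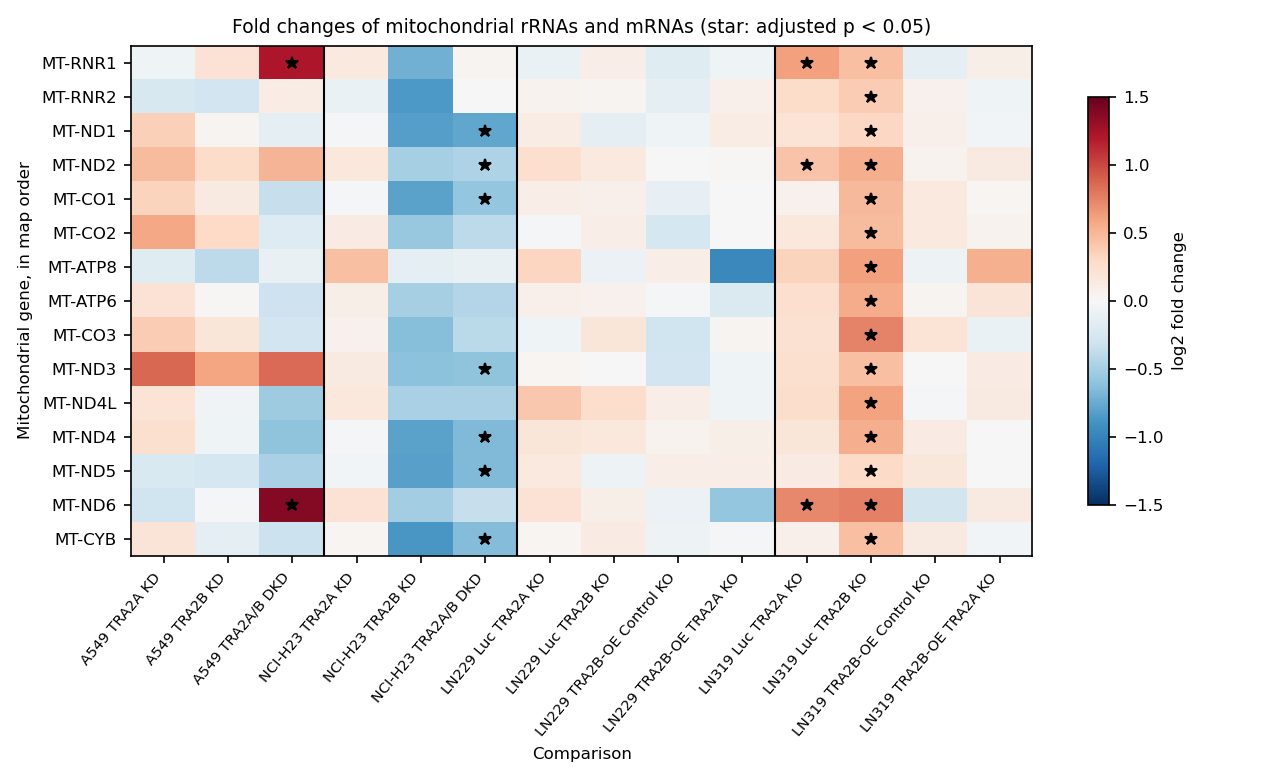
Log2 fold change (colour, red higher and blue lower) of 2 rRNAs and 13 mRNAs (y axis, map order) in 14 comparisons (x axis), with a star where the adjusted p was under 0.05. Stars fill the column of LN319 Luc TRA2B KO, and mark MT-ND6 and MT-RNR1 in A549 TRA2A/B DKD and 7 blue cells in NCI-H23 TRA2A/B DKD.

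In LN319, every mitochondrial mRNA and both rRNAs were higher after TRA2B KO. The members together held 20.6, 18.9 and 18.3% of the 3 Luc TRA2B KO libraries, against 12.1, 12.8 and 12.6% of the controls. The mean share was 19.3 ± 1.16% against 12.5 ± 0.378% (SD, n = 3), which is 154% of the control. All 15 were called higher, where 42.6% of the 19303 tested genes were called in either direction and 18.6% higher. Their log2 fold changes ran from 0.29 to 0.76, and no library of the knockout overlapped the controls for any of the 13 mRNAs in TPM as deposited, against 33.1% of all tested genes that lay above without overlap.

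Among the complex IV subunits, MT-CO3 had 24689, 22815 and 20636 TPM after TRA2B KO against 12579, 13014 and 12181 TPM (log2 fold change 0.74 ± 0.12, SE; limma adjusted p = 0.00039). MT-CO1, the catalytic subunit, had 22185, 20421 and 20103 TPM against 13567, 14605 and 13361 (0.49 ± 0.10, adjusted p = 0.0021), and MT-CO2 changed by 0.48. Of the complex I subunits, MT-ND6 rose from 1269, 1311 and 1315 TPM to 2108, 2671 and 2360 TPM (0.76 ± 0.13, adjusted p = 0.00062). MT-ND5 had 2119, 2064 and 2047 TPM against 1457, 1685 and 1588, the smallest change at 0.29 ± 0.09 (adjusted p = 0.018). Each knockout value of these genes lay above each control value.

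The other complex I mRNAs in this comparison lay between, at 0.31 for MT-ND1, 0.45 for MT-ND3, 0.54 for MT-ND2, 0.55 for MT-ND4 and 0.61 for MT-ND4L. MT-CYB, the mitochondrial subunit of complex III, changed by 0.45. The ATP synthase subunits MT-ATP6 and MT-ATP8 changed by 0.56 and 0.61, and the rRNAs MT-RNR1 and MT-RNR2 by 0.45 and 0.38. Among the mRNAs alone, MT-CO3 held 13.4 ± 0.47% of the mRNA TPM against 11.6 ± 0.42%, while MT-ND1 held 5.01 ± 0.29% against 5.86 ± 0.11% (SD, n = 3), without overlap in either case. The 17 tRNAs tested gave 0 calls by limma, and 0 at an unadjusted p under 0.05, where 50% of all tested genes lay.

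The nuclear genes of the same complexes went the other way in LN319. Of 76 nuclear subunits of complexes I to V, 62 were called lower and 0 higher after TRA2B KO, with a median log2 fold change of -0.53 against 0.02 over all tested genes, of which 24% were called lower. By complex, 31 of 37 fell for complex I, 3 of 4 for complex II, 8 of 9 for complex III, 6 of 11 for complex IV and 14 of 15 for complex V. Under the other scalings 54 to 60 of the 76 were lower and 3 to 5 higher. Complex II, which has no mitochondrially encoded subunit, fell with the rest.

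A ratio within one library does not depend on how libraries are scaled. The mRNAs of the 13 mitochondrially encoded subunits summed to 12 to 14.2 times the TPM of 72 nuclear subunits of complexes I, III, IV and V in LN319 Luc TRA2B KO, and to 6.11 to 6.98 times in Luc Control KO. The ratio was 7.16 to 8.98 in TRA2B-OE Control KO, also above Luc Control KO without overlap, while 6.24 to 7.71 in Luc TRA2A KO overlapped. For single complexes in TRA2B KO against control, the mean ratio was 15 ± 1.48 against 7.47 ± 0.737 for complex I, 7.69 ± 0.447 against 3.75 ± 0.507 for complex III, 17.5 ± 1.48 against 9.61 ± 0.417 for complex IV and 5.62 ± 0.434 against 2.64 ± 0.130 for complex V (SD, n = 3). The ratios are given as a description, with no test.

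**Figure D4:**
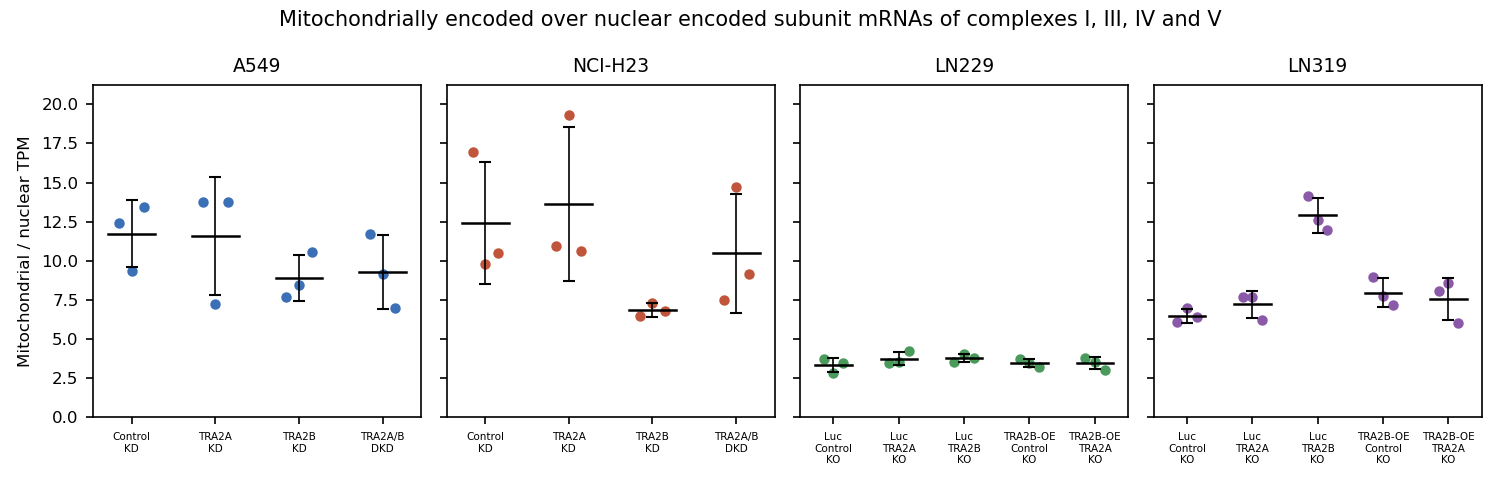
Summed TPM of the 13 mitochondrially encoded subunit mRNAs over that of 72 nuclear subunits of complexes I, III, IV and V (y axis, ratio) by library and condition (x axis), with mean and SD. LN319 Luc TRA2B KO, at 12 to 14.2, lies above the rest of its line, and NCI-H23 TRA2B KD, at 6.48 to 7.33, below its controls.

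Of the scalings tried, 1 changed the rise in LN319. Under quantile normalization, which gives the same value to the same rank in every library and so limits what the highest rows can change, 5 members were called after TRA2B KO, MT-ND3 among them at -0.12. Under TPM as deposited all 15 stayed called and higher.

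TRA2A KO in LN319 gave fewer calls than TRA2B KO. MT-RNR1 had 4765, 5884 and 5087 TPM in Luc TRA2A KO against 3336, 3788 and 3405 in control (log2 fold change 0.61 ± 0.10, SE; limma adjusted p = 0.0013). MT-ND6 had 1845, 2436 and 2009 TPM against 1269, 1311 and 1315 (0.72 ± 0.13, adjusted p = 0.0033). MT-ND2, another complex I subunit, had 6734, 6711 and 6361 TPM against 4889, 5142 and 5113 (0.43 ± 0.09, adjusted p = 0.0068). These 3 of the 32 members tested were called, all higher, where 14.3% of tested genes were called in either direction and 6.82% higher. Over all 32 members the share called was thus close to that of all genes. The 3 were all among the 15 mRNAs and rRNAs, however, and 17 of the 32 members were tRNAs.

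The knockout values of these 3 genes lay above the controls without overlap, as 13.4% of all tested genes did, and each kept its call with any one of the 6 libraries left out. Under quantile normalization MT-ND2 lost its call (0.14, adjusted p = 0.15). MT-RNR2 changed by 0.27 (adjusted p = 0.052), and the remaining mRNAs by 0.06 to 0.33 with no call. The members together held 14.3 ± 0.94% of the Luc TRA2A KO libraries against 12.5 ± 0.38% of the controls (SD, n = 3), without overlap and with no test. MT-ND6 made up 1.71 ± 0.22% of the mRNA TPM against 1.19 ± 0.014% in control (SD, n = 3), again without overlap. With TRA2B overexpressed, TRA2A KO moved MT-ND6 by 0.13, MT-RNR1 by 0.09 and MT-ND2 by 0.13, with 0 of 32 members called by limma and 3 at an unadjusted p under 0.05 (2.77 and 18% of all genes). The test of the difference between both responses gave -0.59 for MT-ND6 (adjusted p = 0.45) and -0.53 for MT-RNR1 (adjusted p = 0.35), neither called, where 0.0207% of all genes were.

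In A549, the double knockdown raised MT-ND6 and MT-RNR1, and no other mRNA or rRNA was called. MT-ND6 had 4986, 3802 and 3154 TPM in TRA2A/B DKD against 1448, 1124 and 1785 in Control KD (log2 fold change 1.37 ± 0.24, SE; limma adjusted p = 0.0015). All 3 DKD libraries lay above all controls. Of 34 members tested, 4 were called, all higher (MT-ND6, MT-RNR1 and the tRNAs MT-TG and MT-TI, which passed the filter only through the DKD libraries), where 30.6% of 16405 tested genes were called and 14.3% called higher. The share of members called was thus not above that of all genes.

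MT-ND6 kept its call with each library left out in turn, at an adjusted p of 0.0016 to 0.0077. Single knockdown gave -0.30 for TRA2A KD and -0.03 for TRA2B KD, neither called. The double knockdown minus both single ones was 1.71 ± 0.34 for MT-ND6 (adjusted p = 0.0082), called as non-additive, as 14.7% of tested genes were, 5.84% of all tested genes with a positive difference. Per 100 TPM of the 12 plus-strand mRNAs, MT-ND6 had 3.14, 2.91 and 2.72 TPM in the DKD libraries and 0.821, 0.751 and 1.51 in the controls. In TRA2A KD it had 0.669, 0.599 and 0.611, below every control, and in TRA2B KD 0.843 to 0.939, within the controls.

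**Figure D5:**
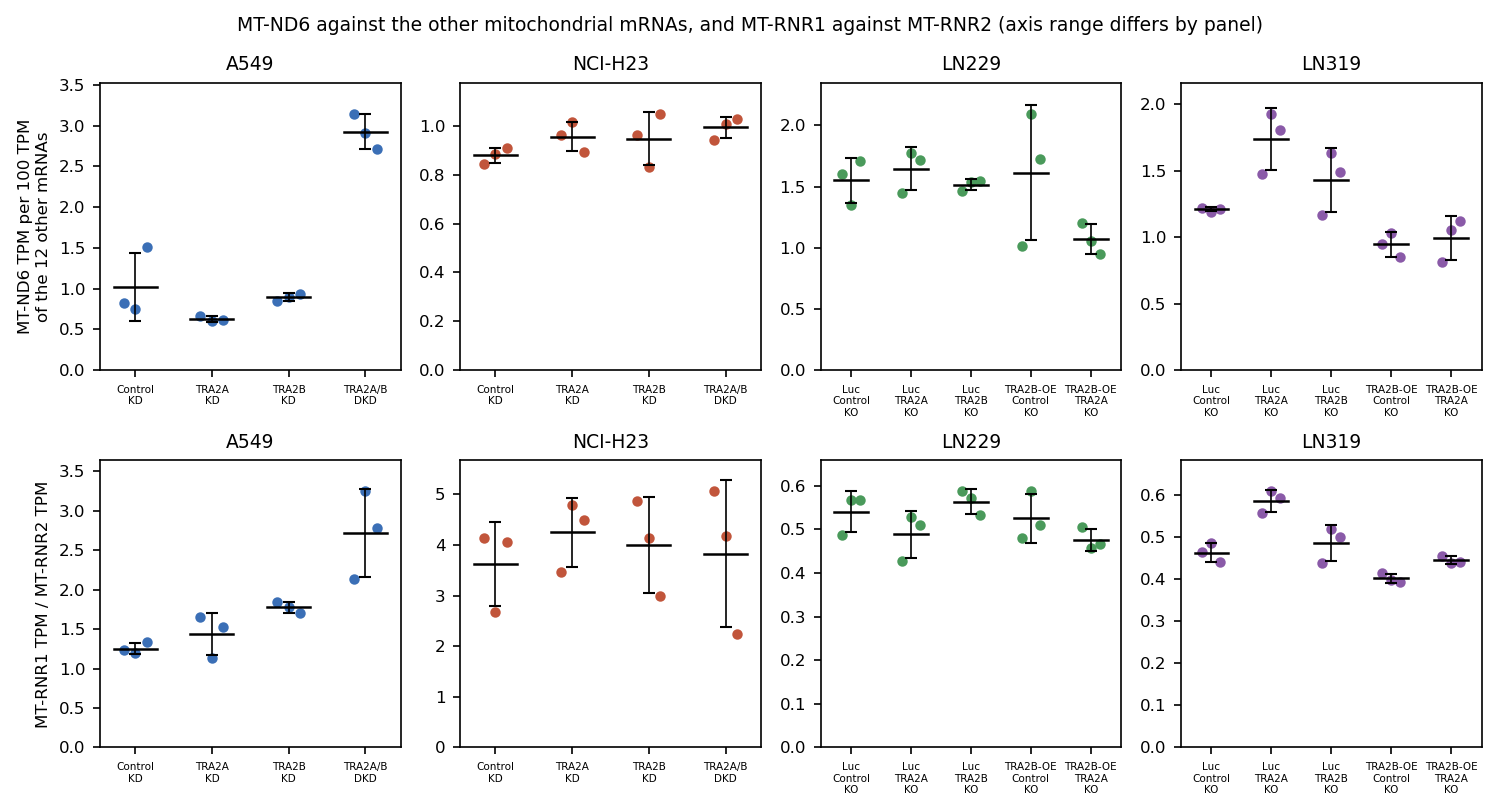
MT-ND6 TPM per 100 TPM of the 12 other mitochondrial mRNAs (upper row, y axis) and the ratio of MT-RNR1 to MT-RNR2 TPM (lower row, y axis) by library and condition (x axis), with mean and SD and an axis range per panel. In A549 the DKD libraries, at 2.72 to 3.14 and at 2.14 to 3.25, lie above all others of the line in both rows.

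MT-RNR1 had 40322, 52695 and 35167 TPM in A549 TRA2A/B DKD and 15083, 11296 and 29738 in control (1.21 ± 0.39, adjusted p = 0.037). The groups did not overlap, but the third control stood apart from the other two, and the call held in 1 of the 6 fits that left out a library, the one without that control (1.54). MT-RNR2 had 18837, 16217 and 12675 TPM against 12223, 9490 and 22340, with overlap (0.11, adjusted p = 0.81). The ratio of MT-RNR1 to MT-RNR2 was 2.14, 3.25 and 2.77 in DKD, 1.71 to 1.85 in TRA2B KD and 1.19 to 1.33 in control, without overlap between any of these 3 groups.

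The other A549 mRNAs had values on both sides of 0, with no call. MT-ND3, of complex I, had 21082, 15547 and 14960 TPM after DKD against 11968, 11071 and 5372 (0.85, adjusted p = 0.099), and MT-ND4, also of complex I, had 9165, 7804 and 6648 TPM against 13144, 10673 and 10141 (-0.61, adjusted p = 0.082). Neither overlapped the control, where 23.8% of all genes lay above and 17.7% below without overlap. As a part of the mRNA TPM, MT-ND3 held 12.3 ± 0.70% against 6.18 ± 1.5% in control, MT-ND2 5.25 ± 0.25% against 3.27 ± 0.25% and MT-ND4 5.66 ± 0.12% against 7.63 ± 0.71% (SD, n = 3), each without overlap and with no test. The total share was 23.4, 21.5 and 17.6% of the DKD libraries and 21.6, 18 and 18.6% of the controls, which overlapped. Without the third control, 10 members were called, with MT-ATP6, MT-CO2 and MT-ND4 among the lower ones at -0.57, -0.58 and -0.75.

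In NCI-H23, the double knockdown lowered 7 of the 13 mRNAs, 5 of the 7 of complex I and 2 of the 6 others, a difference that was not tested. MT-ND1 had 8757, 12634 and 9541 TPM in TRA2A/B DKD against 18321, 14221 and 14723 in Control KD (log2 fold change -0.78 ± 0.18, SE; limma adjusted p = 0.0059), without overlap. The other 6 were MT-ND2 (-0.46), MT-ND3 (-0.61), MT-ND4 (-0.66), MT-ND5 (-0.66), MT-CO1 (-0.58) and MT-CYB (-0.64), at adjusted p of 0.018 to 0.047. Together 7 of the 30 members tested were called lower and 2 tRNAs higher (MT-TF and MT-TQ). MT-TQ passed the filter only through the DKD libraries, and the MT-TF call was lost in all 6 fits that left out a library. Of the 16293 tested genes, 43.2% were called in either direction, 20% higher and 23.2% lower. Over all 30 members the share called lower was thus close to that of all genes. The 7 were all among the 13 mRNAs, however, and 15 of the 30 members were tRNAs.

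The fall rested on few libraries. Without the second DKD library, whose total share lay among those of the controls, 11 members were called, without either of the other DKD libraries 1, and without the first control 2. MT-ND1 kept its call in all 6 of these fits, at -0.96 to -0.62. MT-RNR1 and MT-RNR2 changed by 0.04 and 0.01, with no call, and MT-ND6 by -0.34 (adjusted p = 0.20). Within the mRNA TPM, MT-ND1 held 5.97 ± 0.087% against 7.15 ± 0.14% and MT-CO2 20.7 ± 0.29% against 19.1 ± 0.12% (SD, n = 3), both without overlap. Per 100 TPM of the 12 plus-strand mRNAs, MT-ND6 had 0.993 ± 0.045 TPM against 0.878 ± 0.033 in control (SD, n = 3), above it without overlap and with no test.

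TRA2B KD alone in NCI-H23 gave lower values that did not reach a call. The members held 17.8, 19.3 and 17.9% of the TRA2B KD libraries against 31.9, 23.1 and 24.9% of the controls, without overlap, a mean of 68.9% of the control. Of the 13 mRNAs, 11 lay below the control in every library in TPM as deposited, against 3.53% of all tested genes. All 13 had a negative log2 fold change, with a median of -0.62, and 11 of the 13 mRNAs and 1 of the 2 rRNAs had an unadjusted p under 0.05, as 10.6% of all genes did. None passed adjustment, the lowest being MT-ND1 at -0.82 ± 0.18 with an adjusted p of 0.16, and 0.196% of all genes were called. MT-CYB had 7570, 7654 and 7468 TPM against 15006, 11516 and 12217 (-0.88, adjusted p = 0.20). The 76 nuclear subunits had a median of 0.16, with 0 called.

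In LN229 no mRNA or rRNA was called. Its members held 6.11 to 7.97% of the control libraries, 7.04 to 8.31% after Luc TRA2A KO and 7.53 to 8.0% after Luc TRA2B KO, all overlapping. This held for limma in all 4 comparisons of the line. At an unadjusted p under 0.05 there was 1 mRNA after Luc TRA2A KO, 0 after Luc TRA2B KO, 1 in TRA2B-OE Control KO and 2 in TRA2B-OE TRA2A KO. The shares of all tested genes called in these comparisons were 3.68, 0.568, 1.03 and 6.07%, and 21.6, 23.3, 14.2 and 22.4% had an unadjusted p under 0.05. In TRA2B-OE TRA2A KO, MT-ND6 had 760, 634 and 520 TPM against 682, 1179 and 996 in TRA2B-OE Control KO, with overlap (-0.58, adjusted p = 0.11).

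The remaining comparisons made no call on an mRNA or rRNA by limma. In A549 TRA2A KD and TRA2B KD, 5 and 1 of 34 members had an unadjusted p under 0.05, as 11.3 and 13.5% of all genes did, and 0.207 and 0.341% of all genes were called. In NCI-H23 TRA2A KD it was 2 of 30, against 13.6% of all genes, with 0.976% of all genes called. In LN319 TRA2B-OE Control KO it was 2 of 32, against 25% of all genes, with 4.31% of all genes called, and the total share was 14.7, 13.7 and 13.5%, above the Luc Control KO libraries without overlap.

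The tRNAs were low and scattered, and few stood far from 0. MT-TP, the proline tRNA, held 50.4 to 84.0% of all tRNA TPM and stood at 48.2 to 398 TPM over the 54 libraries. It is encoded on the minus strand next to the control region (chrM:15956-16023, 68 bp), and its gene is shown because it is the one tRNA far above the rest.
MT-TP: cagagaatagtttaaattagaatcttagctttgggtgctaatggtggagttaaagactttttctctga
In LN229, MT-TP had 56.0, 48.2 and 74.8 TPM in TRA2B-OE TRA2A KO against 103, 133 and 115 TPM in TRA2B-OE Control KO (log2 fold change -1.01 ± 0.26, SE; limma adjusted p = 0.040), without overlap, the 1 call among 27 members where 3.64% of all genes were called lower. The call was lost in all 6 fits that left out a library (adjusted p = 0.052 to 0.14). Luc TRA2A KO and its control overlapped for MT-TP.

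Of the other tRNAs, MT-TR, for arginine, was listed at 0 in all 15 LN229 libraries and in 11 of 12 A549 libraries. MT-TG, for glycine, was listed at 0 in the 3 A549 controls and at 10.2, 9.56 and 3.2 TPM in the DKD libraries, and MT-TI, for isoleucine, had 2.61, 6.05 and 3.2 TPM against 0, 0 and 0.707. In NCI-H23, MT-TF, for phenylalanine, had 13.8, 21.5 and 16.8 TPM in DKD against 4.36, 5.10 and 4.33 (1.72 ± 0.58, adjusted p = 0.034), a call lost in all 6 fits that left out a library (adjusted p = 0.051 to 0.10). MT-TQ, for glutamine, had 1.86, 5.92 and 1.16 TPM there against 0 in each control. MT-TG, MT-TI and MT-TQ passed the filter only through their DKD libraries, so their calls are no support for a difference, and no fold or p is given. In A549, MT-TV and MT-TE, for valine and glutamate, were called as non-additive, at 2.70 and 2.06, calls lost in 6 and 9 of 12 fits that left out a library. MT-TI and MT-TQ overlap on opposite strands.

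Nuclear genes that maintain, transcribe and process mitochondrial DNA and RNA were counted as a list of 41. After TRA2A/B DKD 7 rose and 12 fell in A549, and 3 rose and 17 fell in NCI-H23, with medians of -0.08 and -0.19 against 0.03 and 0.02 over all genes. These are 46.3 and 48.8% of the list, against 30.6 and 43.2% of all genes. Over both directions the NCI-H23 share was thus close to that of all genes. Called lower in NCI-H23 were 41.5% of the list, against 23.2% of all genes. Other scalings called 15 to 16 of the list there, in either direction. After LN319 Luc TRA2B KO 4 rose and 16 fell, 48.8% of the list against 42.6% of all genes. Called lower there were 39.0% of the list, against 24% of all genes. However, 14 rose and 9 fell when the rows outside MT- were rescaled to one total. By function in A549 and NCI-H23 DKD, RNA processing had 4 of 13 and 9 of 13 lower, DNA replication and maintenance 5 of 12 lower in both, transcription 3 of 9 higher and 1 lower in A549 and 1 lower in NCI-H23. Tail and stability factors had 1 of 4 lower in both, and RNA decay had 1 of 3 lower in both, with 1 of 3 higher in A549. In the 76 nuclear subunits, 0 rose and 3 fell in A549 (8 and 2 under quantile normalization), and 2 rose and 24 fell in NCI-H23. Over both directions these are 3.95 and 34.2% of that list, below the share of all genes. By direction in NCI-H23, 31.6% of that list was called lower, against 23.2% of all genes. Other scalings called 11 to 26 of the list there.

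Both lung lines called 16 of the 117 genes of these lists after DKD (13.7%), below the 21% of 14450 genes tested in both lines that were called in both. The 12 of them with the largest mean change are given here with A549 first and NCI-H23 second, as log2 fold changes. In replication and maintenance, DNA2, a nuclease and helicase, fell by 1.75 and 1.17, SSBP1, the single-strand binding protein, by 0.58 and 0.60, and TOP1MT, the mitochondrial topoisomerase, by 0.54 and 0.46. RRM2B, a ribonucleotide reductase subunit, rose by 0.78 and 1.31, and the helicase TWNK (listed as C10orf2) by 0.40 and 0.61. POLRMT, the RNA polymerase of mitochondria, fell by 0.61 and 0.35. In RNA processing, FASTKD2 fell by 1.08 and 0.91 and FASTKD5 by 0.43 and 0.56, while PTCD2 rose by 0.75 and 0.97. PNPT1, a polynucleotide phosphorylase that degrades mitochondrial RNA, fell by 1.00 and 0.53, and the complex I subunits NDUFV3 and NDUFS8 fell by 0.76 and 0.37 and by 0.58 and 0.33.

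Nuclear pseudogene copies of mitochondrial genes share sequence with the members, and reads can be split between them. The tables list 405 rows named as such copies, which together held 0.0106 to 0.0599% of a library in A549, LN229 and LN319 and 0.315 to 0.628% in NCI-H23. MTATP6P1 averaged 1868 TPM in NCI-H23 and 124 to 291 TPM in the other lines. MTND1P23 averaged 1857 TPM in NCI-H23 and 7.09 to 61.5 TPM elsewhere. How reads were split between these copies and MT-ATP6 or MT-ND1 was not tested.

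Genes whose pattern was most like the summed mitochondrial mRNAs were ranked by Pearson's r of log2(TPM + 0.1) across the libraries of a line, averaged over 4 lines, among 13336 genes tested in all lines. MTND2P28 came first at a mean r of 0.73, then MTATP6P1 (0.62) and MTCO1P12 (0.56), all 3 copies of mitochondrial genes. The next 7 were LINC00635, RP11-260M2.1, CTD-2587H24.14, SHF, NAT8L, CTB-129P6.11 and OSBPL5, at 0.50 to 0.55. The points are 12 or 15 libraries a line and share conditions and library composition, so the values only describe likeness.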

How the data were processed

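Poly(A)-bound RNA of 54 libraries was sequenced as directional read pairs of 150 bp. Per the labels and the study's methods, the authors quantified transcripts with kallisto 0.48.0 on Gencode v34 (GRCh38), and STAR 2.7.3 is also listed in the submitters' processing notes. The deposited TPM are one table a line, unscaled between libraries, and hold no counts, so the depth behind a value is unknown and precision is the replicate spread. Rows that reached 1 TPM in 4 or more libraries of a line were kept, scaled by an unweighted trimmed mean of ratios (trims of 30% and 5%), and taken as log2(TPM + 0.1), which understates changes of low genes. limma 3.58.1 (R 4.3.3) fitted each line with a mean-variance trend, with two-sided tests adjusted by Benjamini-Hochberg over all its genes. The fit was tested on simulated data. Shares and levels use TPM as deposited. Tables were handled in Python 3.11.15 with pandas 2.3.3 and numpy 2.4.6, and figures drawn with matplotlib 3.10.9.

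Named were all mRNAs and rRNAs, tRNAs that passed the filter where called or far from the rest, and at most 12 nuclear list genes called after DKD in both lung lines. MT-TR was named after its values were seen. Members and lists were chosen with earlier results of these data known. Alternatives were other pseudocounts, filters and scalings, fits of the compared groups alone, a replicate block, a minimum fold change, other denominators of the shares and each library left out. Scalings of the nuclear lists were added after seeing the data.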

Additional observations from a re-analysis of the deposited data

Results flagged for a closer look

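Opposite movement of both lines of a kind, in every library, appeared for 2 members, neither of them called in these comparisons. The share of all tested genes that did so was not counted, and the difference between lines was not tested. MT-TE, the glutamate tRNA, was at 38.9% of the control TPM after TRA2A KD in A549 and at 242% in NCI-H23. Its values were low, at 2.99 to 17.7 TPM over all A549 libraries and 1.53 to 17.5 TPM over those of NCI-H23. MT-CO3 was at 83.7% of the Luc Control KO TPM in LN229 TRA2B-OE Control KO and at 123% in LN319.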

How the results depend on the processing

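Depth is unknown from TPM, so replicate spread alone limits each value, and 3 libraries a group leave low tRNAs and the shortest mRNAs uncertain. Over settings that kept all libraries, 666 fold changes of single members kept direction and side of the threshold, and 21 changed sign. Of those that kept their sign, 37 lost a call and 14 gained one. Some of the 21 also lost their call, which the 37 leave out. Quantile normalization removed 18 calls, those with a changed sign included. TPM as deposited shifted the median of all genes by 0.12 in LN319 Luc TRA2B KO and 0.17 in NCI-H23 TRA2A/B DKD, and rescaling of rows outside MT- shifted the former by 0.24. Except where a scaling's construction is named, the cause of a change was not tested.

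Members called after A549 TRA2A/B DKD numbered 2 with a minimum of 5 TPM or with only the compared groups fitted, and 7 with TPM as deposited or quantile normalization. A549 non-additive calls numbered 1 without a filter and 5 under quantile normalization. After NCI-H23 TRA2A/B DKD there were 5 with TPM as deposited or quantile normalization, 4 with rows outside MT- rescaled or only the compared groups, and 2 above an absolute log2 fold change of 1. Those 2 were the tRNAs MT-TF and MT-TQ, and no called mRNA reached that minimum. NCI-H23 non-additive calls numbered 1 with a minimum of 5 TPM and under each of the 3 other scalings. LN229 TRA2B-OE TRA2A KO had 0 without a filter or with only the compared groups. LN319 Luc TRA2A KO had 6 with a minimum of 5 TPM and 0 above the fold minimum, and LN319 Luc TRA2B KO had 5 under quantile normalization and 0 above the fold minimum.

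Replicate numbers did not pair the libraries, since deviations of same-numbered libraries correlated at -0.15 to 0.21. With the replicate block, 5 members were called in LN319 Luc TRA2A KO, 5 in A549 TRA2A/B DKD, 7 in NCI-H23 TRA2A/B DKD and 16 in LN319 Luc TRA2B KO.

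With one library left out, members called ranged from 2 to 10 in A549 TRA2A/B DKD, 1 to 5 for A549 non-additive, 1 to 11 in NCI-H23 TRA2A/B DKD, 0 to 1 for NCI-H23 non-additive, 0 to 3 in LN229 TRA2B-OE TRA2A KO, 3 to 4 in LN319 Luc TRA2A KO, 13 to 16 in LN319 Luc TRA2B KO and 0 to 1 in LN319 TRA2B-OE Control KO. Signs changed in A549 TRA2A/B DKD for MT-ATP8 (-0.69 to 0.35), MT-CO2 (-0.58 to 0.053), MT-ND1 (-0.36 to 0.063) and MT-RNR2 (-0.12 to 0.39), in NCI-H23 TRA2B KD for MT-ATP8 (-0.36 to 0.24), and in NCI-H23 TRA2A/B DKD for MT-ATP8 (-0.30 to 0.27), MT-RNR1 (-0.29 to 0.43) and MT-RNR2 (-0.21 to 0.22).

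Quantile normalization, which fixes the value of each rank, changed the sign of MT-CO3 in A549 TRA2A/B DKD (0.048). It did so in NCI-H23 TRA2B KD for MT-ATP8 (0.46), MT-CO3 (0.10) and MT-ND2 (0.15), and in NCI-H23 TRA2A/B DKD for MT-ATP8 (0.32), MT-CO1 (0.047) and MT-ND2 (0.13). In LN319 Luc TRA2A KO it did so for MT-CO1 (-0.085), MT-CO2 (-0.074), MT-CYB (-0.19) and MT-ND4 (-0.20), and in LN319 Luc TRA2B KO for MT-CO1 (-0.055), MT-CO2 (-0.11), MT-CYB (-0.0086), MT-ND1 (-0.12), MT-ND2 (-0.026), MT-ND3 (-0.12) and MT-RNR2 (-0.051). In NCI-H23 TRA2A/B DKD, MT-ATP8 was 0.050 with TPM as deposited, and MT-RNR1 and MT-RNR2 were -0.042 and -0.067 without a filter.

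As a share of all MT- rows in place of mRNAs, DKD minus control in A549 was 1.2 percentage points for MT-ND6, 3.55 for MT-ND3 and 1.00 for MT-ND2, and -1.33 for MT-ND1 in NCI-H23. Of the 76 nuclear subunits, A549 TRA2A/B DKD called 5 with TPM as deposited, 10 under quantile normalization and 7 with rows outside MT- rescaled, and NCI-H23 TRA2A/B DKD called 11 with TPM as deposited.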
